A study of Caenorhabditis elegans with 6 samples.

Results

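The genes described here are the protein-coding genes of *C. elegans* whose names start with *math-*, *bath-* or *btb-*, and the measurement is the level of the 22G-RNAs antisense to each. They were chosen by name and biotype alone, and 89 such genes (36 *math-*, 36 *bath-* and 17 *btb-*) had a 22G-RNA read among the 19781 features with a 22G-RNA read in any library. The annotation (Ensembl release 115) lists 90 protein-coding genes with these names, and *math-38* alone had no 22G-RNA entry. The libraries were made from whole adult worms grown on *E. coli*, with many animals pooled per sample. The untreated groups were *eggd-1* null animals (2 libraries) and a control that carried *pgl-1::RFP*, a fusion of the P granule protein PGL-1 to RFP (2 libraries). The labels name no RFP fusion for the *eggd-1* animals, so the fusion and the mutation cannot be told apart in the untreated comparison. RNA treated with sodium periodate, which keeps RNAs with an unmodified 3′ end from being cloned, gave 1 library of *eggd-1* null animals and 1 of N2, the wild-type strain. EGGD-1 is a germ granule protein, and the comparison asks how its loss changes the small RNAs made on transcripts. No germline was dissected: fewer germ cells and fewer 22G-RNAs per germ cell cannot be told apart in such samples.

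22G-RNAs are short antisense RNAs that RNA-dependent RNA polymerases copy from germline transcripts and that Argonaute proteins carry. WAGO Argonautes, among them the nuclear HRDE-1, silence their targets, MUT-16 supports the amplification of these 22G-RNAs, and PRG-1 with its piRNAs starts their production on many transcripts, whereas CSR-1 binds 22G-RNAs of expressed germline genes. The proteins that these genes encode are related to substrate adaptors of cullin ubiquitin ligases: a BTB domain can bind the cullin CUL-3, and a MATH domain can bind the substrate. By name, *bath-* genes encode both domains, *math-* genes a MATH domain and *btb-* genes a BTB domain. The family is large in nematodes and lies in clusters of related copies.

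The untreated libraries held 21883625 and 23452187 genome-mapped reads (*eggd-1*) and 28178881 and 31245662 (control), and the oxidized ones 19457486 (*eggd-1*) and 27109317 (N2). Levels are in RPM, that is counts scaled to the genome-mapped reads, and 3 counts, the limit that a count of 0 allows, lay between 0.0960 and 0.154 RPM. These limits cover counting error only. Replicates differed by more than sampling noise (chi-square per degree of freedom 2.81 in *eggd-1* and 3.17 in control). 22G-RNAs of *eggd-1* itself were at 0.366 and 0.469 RPM in *eggd-1* libraries, against 78.1 and 81.1 RPM in control libraries.

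The family ranged from some of the most heavily targeted genes of the worm to genes with almost no 22G-RNAs. The mean over the 4 untreated libraries was at least 100 RPM for 7 members, all of them *bath-* genes, 10 to 100 RPM for 23, 1 to 10 RPM for 16 and under 1 RPM for 43. Of those 43, 29 were *math-*, 6 *bath-* and 8 *btb-* genes. *bath-* genes had a median of 26.9 RPM, *btb-* genes 1.01 RPM and *math-* genes 0.181 RPM. Per length, in RPM per kb of exon in control animals, these medians were 19.1 for *bath-*, 1.01 for *btb-* and 0.134 for *math-* genes, beside 0.699 for all protein-coding genes with a 22G-RNA read. Genes named for both domains carried most of the family's 22G-RNAs. *bath-45* and *bath-20* held 58.7% of the summed level of the 89 genes and the 10 highest genes 88.0%.

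*bath-45* (chromosome II, 13123020 to 13125189, WBcel235) had 864 RPM per kb of exon in control, above 99.8% of protein-coding genes on this scale. *bath-20* (chromosome II, 2040276 to 2042547) had 796, *bath-24* 430, *bath-13* 307, *bath-23* 220 and *bath-7* 185 RPM per kb in control. At the other end stood the *math-* genes, of which 13 of 36 had enough reads to test. The 35 members without a test never exceeded 0.640 RPM in an untreated library.

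Reads of many members are shared with other places or features, and where these lie was not examined. The authors divided each read by the number of places it mapped to and by the features it overlapped there, so near-identical copies split their reads, and 57 of the 89 members had fractional counts in an untreated library while 32 had whole counts in all of them. For scale, 78.8% to 79.8% of the entries of an untreated library, over all kinds of small RNA, were whole, a measure taken per library. Exons of 11 members also overlapped those of another gene on the same strand. The level of a single member among the 57 is therefore uncertain where a copy took part of its reads.

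The authors' files assign target classes, and their shares are given as a description. Of the 89 members, 32.6% were classed as MUT-16 targets, against 9.77% of protein-coding genes with a 22G-RNA read, 22.5% against 7.23% as PRG-1 targets, 20.2% against 6.37% as HRDE-1 targets and 20.2% against 7.13% as WAGO-1 targets. The share of CSR-1 targets was lower, 13.5% against 22.97%, and that of WAGO-4 targets close, 30.3% against 27.0%. No member was an ALG-3/4 or an ERGO-1 target, classes that make up 7.52% and 0.271% of protein-coding genes. A class was missing for 41 members. The 26G-RNAs that ALG-3/4 and ERGO-1 bind were scarce as well: 29 members had a 26G-RNA read in an untreated library, none above 0.609 RPM, and the sum over members was 2.76 and 2.61 RPM in *eggd-1*, against 1.42 and 2.19 RPM in control.

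In *eggd-1* libraries the family's total lay close to that of the control, while single members, like features at large, moved in both directions. Over all 89 members the 22G-RNAs summed to 5010 and 5092 RPM in *eggd-1* libraries, against 5181 and 5052 RPM in control libraries. The groups overlapped, and the ratio of the means was 0.987 ± 0.021 (SD, n = 2 libraries per genotype), beside 0.956 ± 0.026 for all 22G-RNAs. *bath-* genes summed to 4895 ± 66.9 RPM in *eggd-1* and 4890 ± 93.3 RPM in control (ratio 1.00 ± 0.023). The smaller sums were lower in *eggd-1*: 93.1 ± 5.56 RPM in *eggd-1* and 136.6 ± 0.931 RPM in control for *math-* genes (0.682 ± 0.041), and 62.5 ± 3.20 RPM in *eggd-1* and 89.5 ± 2.97 RPM in control for *btb-* genes (0.699 ± 0.043). A few genes made up much of this: without *math-31* and *math-1* the *math-* ratio was 0.852 ± 0.037, and without *btb-4* and *btb-11* the *btb-* ratio was 0.790 ± 0.039, both chosen after the data had been seen. No library of one genotype reached into the range of the other for the *math-* and *btb-* sums. The same held for the sum of all 22G-RNAs (377431 and 384807 RPM in *eggd-1*, against 405251 and 391950 RPM in control) and for 81.2% of single features tested. With 2 libraries per genotype an exact permutation test cannot give a two-sided p below 0.333, so these sums carry no p. Because *bath-45* and *bath-20* dominate the total, it was also taken without them, an alternative chosen after the data had been seen, and the ratio was then 1.09 ± 0.032.

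**Figure D1:**
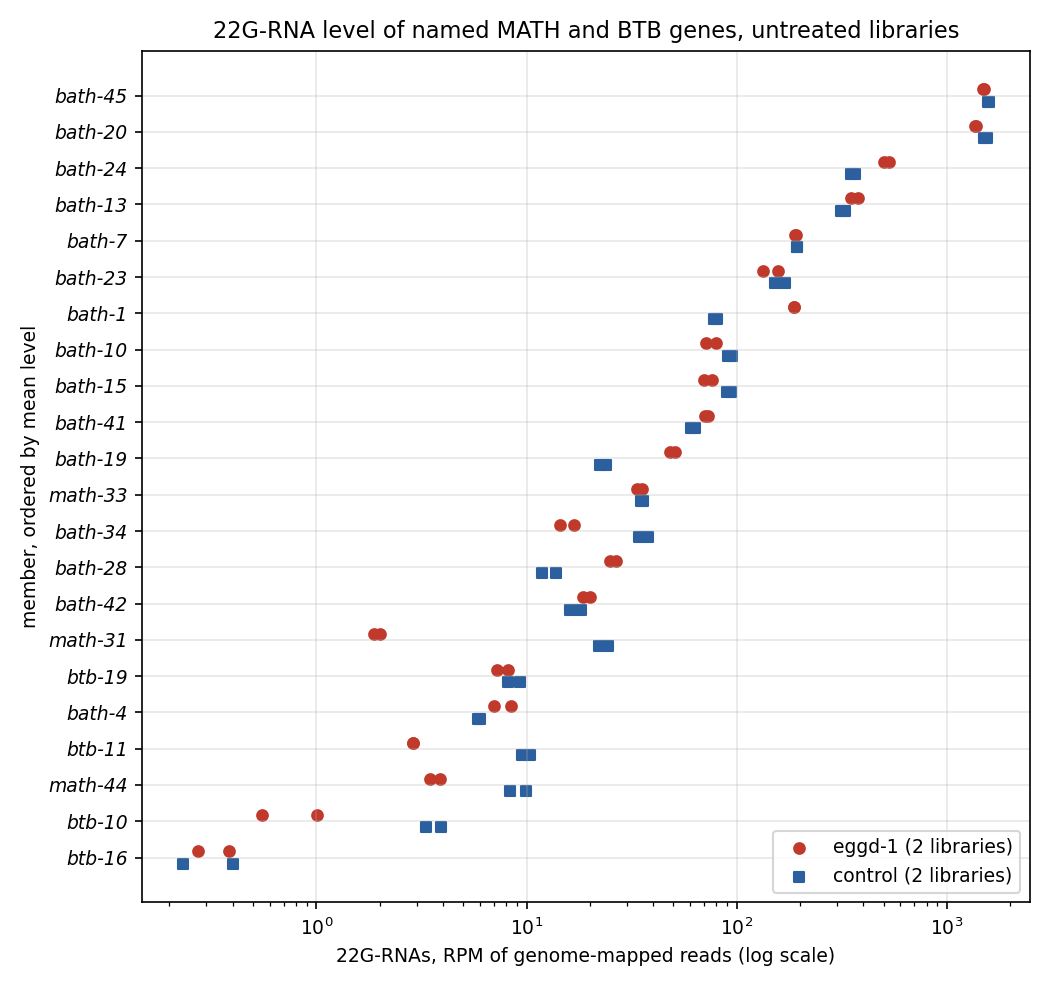
22G-RNA level of 22 named members in RPM of genome-mapped reads on a log axis, with red circles for the 2 *eggd-1* libraries and blue squares for the 2 control libraries of each gene. Most genes lie at nearly the same level in both genotypes, from *bath-45* above 1000 RPM down to *btb-16* below 1 RPM, while *math-31*, *btb-10* and *btb-11* lie far lower and *bath-1*, *bath-19* and *bath-28* higher in *eggd-1*.

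Rounded counts of each gene were compared by the quasi-likelihood test of edgeR, with library size set to the genome-mapped reads and p-values adjusted after Benjamini-Hochberg over all 11741 features with enough reads. Of the 54 members that could be tested, 12 (9 *bath-*, 2 *math-*, 1 *btb-*) were higher and 17 (8 *bath-*, 4 *math-*, 5 *btb-*) lower in *eggd-1*, at a threshold of 0.05 on the adjusted p. Over all features tested, 21.7% were higher and 40.8% lower and 62.5% in either direction, and 29 of the 54 members passed in either direction. The median log2 fold change was -0.17 over the members, beside -0.18 over all features. It was -0.27 over the 13 *math-* genes tested, -0.06 over the 30 *bath-* genes and -0.45 over the 11 *btb-* genes. The split of calls changed with the scaling and other settings of the fit. TMM factors raised the median of all features by 0.15. They gave 14 members higher and 15 lower (48.3% of member calls higher, against 41.4% without them). With miRNA totals 6 were higher and 18 lower (25.0%). DESeq2, which differs in its test and filter as well as its size factors, called 11 higher and 9 lower (55.0%) of 88 members tested. The split of all calls moved alike, with 48.1% higher under TMM, 49.3% under DESeq2, 27.6% under miRNA totals and 34.7% without further scaling. The median of *math-* and of *btb-* genes stayed below 0 under these settings, and that of *bath-* genes was above 0 with TMM (0.08) and DESeq2 (0.11).

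Groups of libraries did not overlap for 42 of the 54 members, beside 81.2% of all features tested. Changes of at least 4-fold were rarer: 2 members, *math-31* and *btb-10*, were lower by that much and none was higher, beside 4.81% of features lower and 2.04% higher. The labels give no separate cultures for the replicates, which the study calls biological, so p-values measure the spread between these samples.

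**Figure D2:**
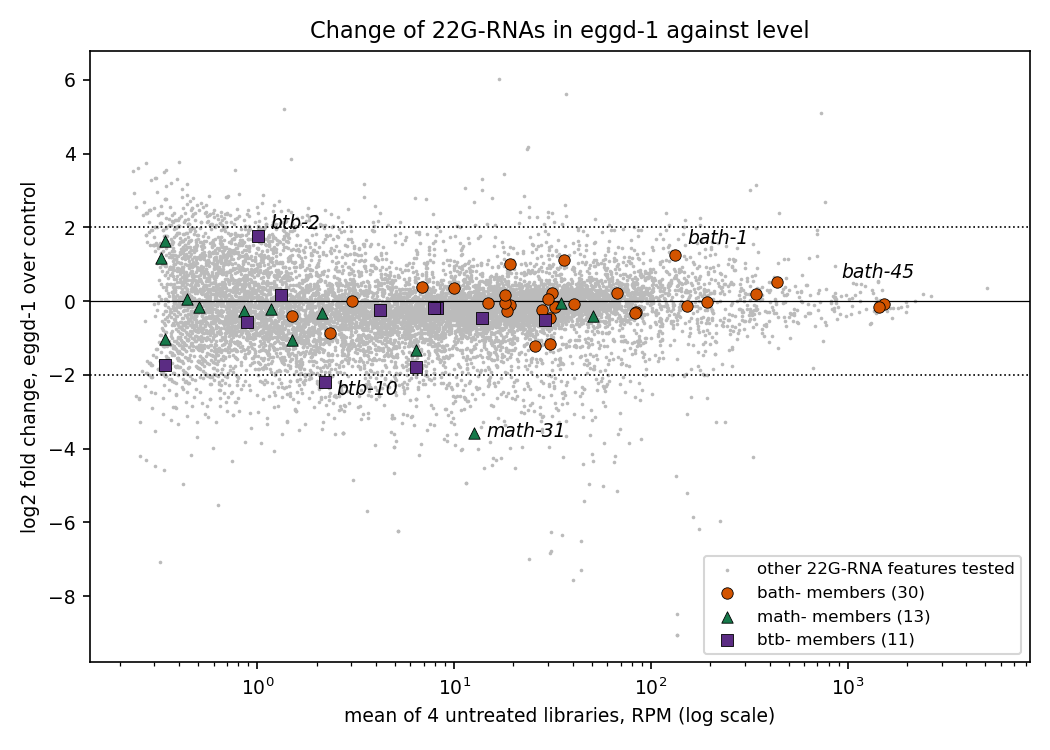
Log2 fold change of 22G-RNAs, *eggd-1* over control, against the mean level of the 4 untreated libraries in RPM (log axis) for all features tested (grey) and the 54 members tested, by family; dotted lines mark 4-fold. Members lie within the spread of the other features, with *math-31* at -3.58 and *btb-10* at -2.19 past the lower line and the 2 highest *bath-* genes near 0.

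The largest loss was at *math-31* (chromosome II, 1912450 to 1912841, minus strand), a short gene of 0.344 kb of exon and a MUT-16 target. Its 22G-RNAs were at 1.87 and 2.00 RPM in *eggd-1* libraries, against 24.5 and 22.02 RPM in control libraries. Both *eggd-1* libraries lay far below both controls, a log2 fold change of -3.58 (SE 0.132, adjusted p = 1.02e-20, Benjamini-Hochberg, quasi-likelihood test of edgeR). Its counts were whole numbers in all untreated libraries. *btb-10* (chromosome II, 1059662 to 1060802), a MUT-16 and PRG-1 target, had 0.548 and 1.00 RPM in *eggd-1* libraries, against 3.34 and 3.90 RPM in control libraries. The groups did not overlap, but the spread between the *eggd-1* libraries was wide for so few reads (log2 fold change -2.19, SE 0.253, adjusted p = 8.74e-09 by the same test). Without *eggd-1* replicate 1 its log2 fold change was -1.82, under 4-fold. Its neighbour *btb-11* (chromosome II, 1023693 to 1024784), a target of HRDE-1, MUT-16 and PRG-1, had 2.88 RPM in each *eggd-1* library, against 10.4 and 9.47 RPM in control libraries, with a log2 fold change of -1.78 (SE 0.141). Between them, *math-34* had 0.274 and 0.171 RPM in *eggd-1* libraries, against 0.461 and 0.448 RPM in control libraries, and did not pass (adjusted p = 0.0669 from edgeR).

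The next 3 decreases, where the mean was 50 counts or more, lay in different parts of the genome. *math-44* (chromosome II, 1989310 to 1990535), an HRDE-1, MUT-16 and PRG-1 target, had 3.87 and 3.48 RPM in *eggd-1* libraries, against 8.30 and 9.97 RPM in control libraries. *bath-34* (chromosome I, 12750036 to 12752105), an HRDE-1, MUT-16 and WAGO-1 target, had 16.8 and 14.5 RPM in *eggd-1* libraries, against 34.3 and 37.7 RPM in control libraries. *bath-31* (chromosome II, 3731973 to 3733181) had 17.5 and 20.0 RPM in *eggd-1* libraries, against 41.3 and 43.5 RPM in control libraries. In none of the 3 did the genotypes overlap, and the log2 fold changes were -1.31, -1.21 and -1.17 (SE from 0.0808 to 0.141). *bath-31*, which lay outside the rule for named genes and was added after its value had been seen, had whole counts. The copy next to *bath-34*, *bath-35*, was at 14.5 and 14.6 RPM in *eggd-1* libraries, against 14.7 and 15.2 RPM in control libraries, and did not pass.

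Gains were led by *bath-1* (chromosome II, 2027612 to 2028812), a target of HRDE-1, MUT-16, PRG-1, WAGO-1 and WAGO-4. It had 188 and 186 RPM in *eggd-1* libraries, against 80.5 and 77.7 RPM in control libraries. The replicates agreed closely and the groups were far apart (log2 fold change 1.24, SE 0.0701, adjusted p = 5.22e-16, Benjamini-Hochberg, quasi-likelihood test of edgeR). *bath-19* (chromosome II, 2035695 to 2039388), classed as oogenic and a WAGO-4 target, had 48.1 and 51.0 RPM in *eggd-1* libraries, against 22.3 and 23.7 RPM in control libraries, with whole counts (log2 fold change 1.11, SE 0.0752). *bath-28* (chromosome II, 3343731 to 3344967), a target of both CSR-1 and MUT-16, had 25.0 and 26.6 RPM in *eggd-1* libraries, against 11.9 and 13.7 RPM in control libraries (1.01, SE 0.0894). The groups were apart in each case, though exons of *bath-28* overlap *F14D2.15* on the same strand. *bath-24* (chromosome II, 2044619 to 2045605), the third highest gene of the family, had 502 and 530 RPM in *eggd-1* libraries, against 364 and 351 RPM in control libraries, a smaller gain on a larger base (0.53, SE 0.0702). *bath-4* had 8.48 and 6.97 RPM in *eggd-1* libraries, against 6.02 and 5.89 RPM in control libraries (0.37, SE 0.129), a call lost with miRNA totals and without *eggd-1* replicate 1.

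The highest member changed little. *bath-45*, classed as spermatogenic and a target of MUT-16, PRG-1, WAGO-1 and WAGO-4, had 1504 and 1486 RPM in *eggd-1* libraries, against 1592 and 1561 RPM in control libraries. *bath-20*, of the same classes, had 1360 and 1379 RPM in *eggd-1* libraries, against 1557 and 1497 RPM in control libraries. Both *eggd-1* libraries were below both controls for each gene, but neither difference passed: log2 fold changes were -0.08 for *bath-45* (SE 0.0711, adjusted p = 0.351) and -0.16 for *bath-20* (SE 0.0713, adjusted p = 0.0564, edgeR in both), and that of *bath-45* was above 0 under TMM (0.07) and DESeq2 (0.08). The decrease of *bath-20* passed with no filter on reads (adjusted p = 0.0272 from edgeR), while with TMM its log2 fold change was -0.01. *bath-7* had 188 and 192 RPM in *eggd-1* libraries, against 193 RPM in each control library, a log2 fold change of -0.02 (0.12 with TMM, 0.13 with DESeq2). *bath-23* had 133 and 158 RPM in *eggd-1* libraries, against 170 and 151 RPM in control libraries, and the groups overlapped (-0.15, and 0.01 with DESeq2).

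The remaining genes of the highest 10 passed with small changes. *bath-13* rose, with 351 and 378 RPM in *eggd-1* libraries, against 326 and 314 RPM in control libraries (log2 fold change 0.19, SE 0.0704). *bath-41* had 71.0 and 73.0 RPM in *eggd-1* libraries, against 63.5 and 60.7 RPM in control libraries (0.21, SE 0.0696). Both calls were lost with miRNA totals as library size and without control replicate 2, and that of *bath-13* also without *eggd-1* replicate 2 (adjusted p = 0.208 from edgeR). *bath-10* had 71.4 and 79.6 RPM in *eggd-1* libraries, against 91.2 and 94.8 RPM in control libraries (-0.30, SE 0.0720). *bath-15* had 76.2 and 69.8 RPM in *eggd-1* libraries, against 90.1 and 93.8 RPM in control libraries (-0.33, SE 0.0711). DESeq2 called neither of these decreases.

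Of 4 members picked by name for their proteins, 3 could be tested and none of these passed. MATH-33, a ubiquitin-specific protease of the USP7 type, is encoded by *math-33* on chromosome V (11113907 to 11118824), a CSR-1 target at 35.4 and 33.4 RPM in *eggd-1* libraries, against 35.1 and 35.6 RPM in control libraries. The groups overlapped (log2 fold change -0.04, SE 0.0736, adjusted p = 0.650 from edgeR, and 0.11 and 0.12 with TMM and DESeq2). BATH-42, which binds CUL-3, is encoded by *bath-42* on chromosome III, another CSR-1 target, at 18.5 and 20.0 RPM in *eggd-1* libraries, against 18.1 and 16.1 RPM in control libraries. Both *eggd-1* libraries were higher, but the difference passed only with TMM and DESeq2 (0.17, SE 0.0890). *btb-19* had 8.16 and 7.27 RPM in *eggd-1* libraries, against 8.13 and 9.28 RPM in control libraries, with overlapping groups. *btb-16*, whose exons overlap *btb-18*, had under 0.41 RPM in every untreated library and was not tested.

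The other 14 members past the threshold were of low level or small change. Lower in *eggd-1* were *btb-5* (0.183 and 0.128 RPM in *eggd-1*, against 0.497 and 0.544 RPM in control), *math-15*, *bath-38*, *btb-4*, *bath-44*, *btb-20*, *math-1*, *bath-30* and *bath-29*, with log2 fold changes between -1.73 and -0.24. The most abundant of these was *math-1*, an HRDE-1 and MUT-16 target of 0.561 kb of exon, with 47.3 and 40.6 RPM in *eggd-1* libraries, against 58.8 and 57.0 RPM in control libraries. *btb-4*, an HRDE-1, MUT-16 and PRG-1 target, had 25.4 and 21.99 RPM in *eggd-1* libraries, against 32.9 and 35.2 RPM in control libraries. *bath-44*, a CSR-1 and WAGO-1 target with whole counts, had 24.2 and 27.8 RPM in *eggd-1* libraries, against 34.2 and 36.9 RPM in control libraries. The genotypes were apart in all 3, by less than 1 on the log2 scale. Higher were *btb-2*, *math-9*, *math-4*, *bath-3* and *bath-5*, between 0.21 and 1.76. The 3 largest of these gains were at genes with few reads: *btb-2*, classed as spermatogenic, had 1.92 and 1.19 RPM in *eggd-1* libraries, against 0.532 and 0.384 RPM in control libraries. *math-9* had 0.526 and 0.490 RPM in *eggd-1* libraries, against 0.218 and 0.117 RPM in control libraries. *math-4* had 0.411 and 0.497 RPM in *eggd-1* libraries, against 0.213 and 0.176 RPM in control libraries. In all 3 the *eggd-1* libraries were above the controls, but DESeq2 called neither *math-9* nor *math-4*. *math-9* and *math-4* had enough reads for the filter in the *eggd-1* libraries alone, and *btb-5* in the control libraries alone. The filter thus favoured the direction of these calls. With no filter on reads, 11 of 88 members were higher and 18 lower, and 1 *math-* gene was higher instead of 2. The call of *math-4* was lost without any 1 of the 4 libraries, and that of *math-9* without control replicate 2 or *eggd-1* replicate 1. DESeq2 did not call *btb-5*, *math-15*, *bath-38* or *btb-20* either, and the call of *btb-5* was lost without control replicate 2 or *eggd-1* replicate 2.

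The members are unevenly placed, with 76 of 89 on chromosome II, 5 on I, 4 on III, 3 on V and 1 on IV. Neighbours within 100 kb of each other formed a cluster of 53 members from 1510287 to 2155220 (25 tested, 8 higher and 5 lower), one of 11 from 3295405 to 3378834 (7 tested, 1 higher and 3 lower) and one of 3 with *btb-11*, *math-34* and *btb-10*. For comparison, 21.7% of all features tested were higher and 40.8% lower. Adjacent copies moved in different directions, and whether neighbours differ more than other genes do was not tested. In the order of the chromosome, *bath-21* (log2 fold change -0.09) did not pass, *bath-1* (1.24), *bath-3* (0.35) and *bath-5* (0.21) rose, *btb-4* (-0.52) fell, *bath-19* (1.11) rose, *bath-20* (-0.16) did not pass, *bath-24* (0.53) rose and *math-1* (-0.40) fell. These calls held with TMM and DESeq2, and those of *bath-3* and *bath-5* were lost with miRNA totals, that of *bath-5* also without control replicate 1 (adjusted p = 0.0516 from edgeR) or 2 (0.116). In the cluster of 11, *bath-28* rose beside *bath-30* (-0.28) and *bath-29* (-0.24), which were called lower but not with TMM, DESeq2 or without control replicate 1, *bath-29* also not without *eggd-1* replicate 2. *math-31* lies next to *bath-4*, which gained.

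**Figure D3:**
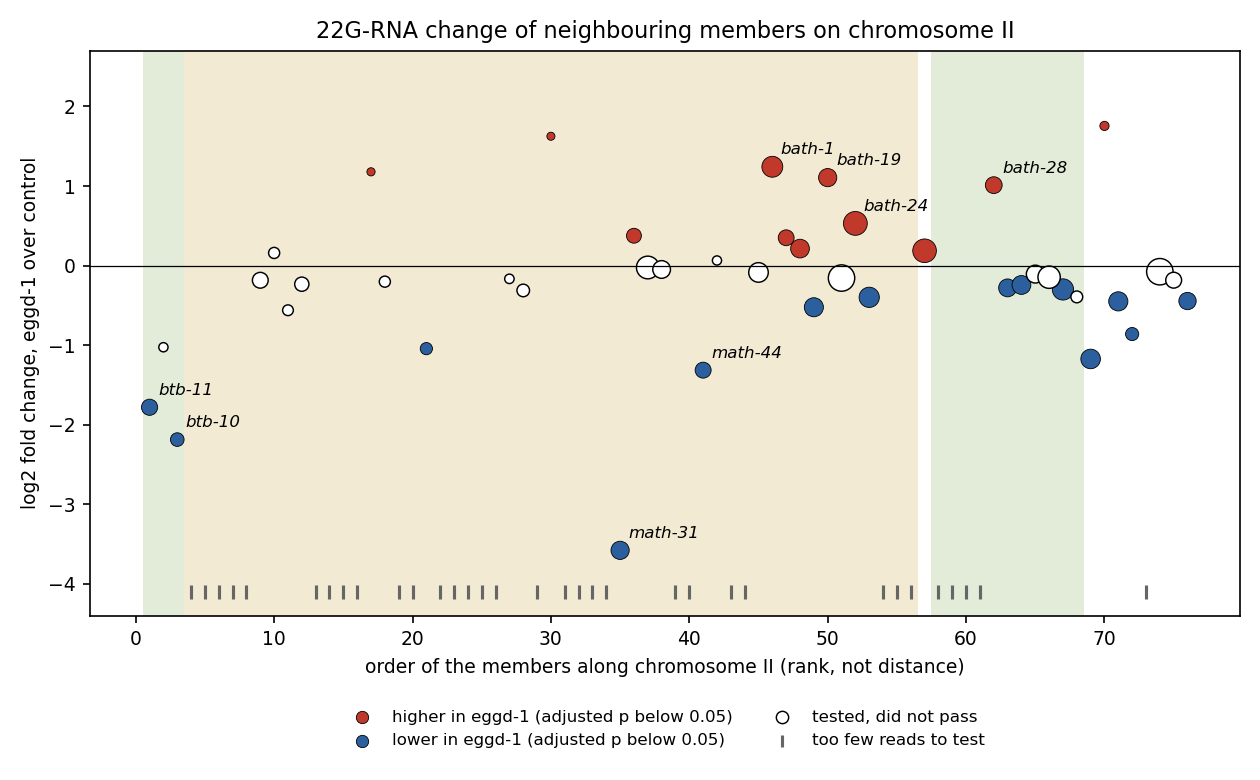
Log2 fold change of 22G-RNAs, *eggd-1* over control, for the 76 members on chromosome II in their order along it, with shading for the 3 clusters, circle area growing with the control level, red for higher, blue for lower, white for not past an adjusted p of 0.05 and ticks for members with too few reads. Red, blue and white circles alternate within the cluster of 53, where *bath-1*, *bath-19* and *bath-24* are red and *math-31* and *math-44* blue.

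By target class, the 26 MUT-16 members tested held 5 higher and 11 lower (median log2 fold change -0.22, and -0.07 with TMM), beside 20.6% higher and 57.0% lower over all 2026 MUT-16 features tested (median -0.37). The 18 HRDE-1 members held 4 higher and 9 lower (-0.24), beside 20.1% and 63.5% of all HRDE-1 features (-0.53). The 20 PRG-1 members held 5 higher and 8 lower (-0.21), beside 20.4% and 60.3% (-0.47), and the 17 WAGO-1 members 4 of each (-0.09, and 0.06 with TMM), beside 17.1% and 55.8% (-0.31). The 12 CSR-1 members held 3 of each (-0.08, and 0.07 with TMM), beside 20.6% and 40.2% of all CSR-1 features (-0.12). The 27 WAGO-4 members held 8 higher and 6 lower (-0.05), beside 21.7% and 40.8% of all features tested. These differences between members and classes were not tested. Classes overlap, since 18 members are targets of both MUT-16 and HRDE-1.

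Calls were also counted over the 32 members with whole counts, an alternative chosen after the data had been seen. Of these, 15 were tested, 3 were higher (*bath-19*, *bath-41* and *btb-2*) and 4 lower (*math-31*, *btb-5*, *bath-31* and *bath-44*), with a median log2 fold change of -0.17, and with TMM 5 were higher and 4 lower. The 39 members with shared reads held 9 higher and 13 lower, with a median of -0.17. Beside both sets, 21.7% of all features tested were higher and 40.8% lower, with a median of -0.18.

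Pseudogenes of the family were counted apart, and their summed 22G-RNAs were higher in *eggd-1*. The 23 with reads summed to 1364 and 1369 RPM in *eggd-1* libraries, against 924 and 942 RPM in control libraries, a ratio of 1.46 ± 0.020 (SD, n = 2 libraries per genotype) with groups far apart. Of 11 tested, 4 were higher and 2 lower, beside 21.7% and 40.8% of all features tested. Their median log2 fold change was -0.04 (0.11 with TMM), so the sum and the median differ in sign. *bath-22* had 364 and 369 RPM in *eggd-1* libraries, against 171 and 168 RPM in control libraries. *bath-14* had 280 and 286 RPM in *eggd-1* libraries, against 164 and 169 RPM in control libraries. *bath-11* had 478 and 462 RPM in *eggd-1* libraries, against 324 and 332 RPM in control libraries. All 3 rose (log2 fold changes 1.11, 0.77 and 0.52), whereas *bath-12*, at 158 and 167 RPM in *eggd-1* libraries, against 175 and 183 RPM in control libraries, did not pass. The decrease of *math-29* rested on few reads, 0.137 and 0.469 RPM in *eggd-1* libraries, against 1.14 and 1.41 RPM in control libraries. A read that matches both a gene and a pseudogene is split between them.

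Genes of the ligase that BTB proteins serve stayed within a log2 fold change of -0.58 to 0.53. The list held CUL-3, its RING partners, the neddylation enzymes, the COP9 signalosome and the substrates and partners of MEL-26, a MATH and BTB adaptor that binds the katanin MEI-1. Of 19 such genes, all tested, 4 were higher and 8 lower in *eggd-1* (median log2 fold change -0.15). This is close to all features tested, with 21.7% higher and 40.8% lower (median -0.18). Calls in the list were 7 higher and 3 lower with TMM, 5 and 1 with DESeq2, and 1 and 8 with miRNA totals. *cul-3* had 16.5 and 18.0 RPM in *eggd-1* libraries, against 20.3 and 19.7 RPM in control libraries. *mel-26* had 18.4 and 19.8 RPM in *eggd-1* libraries, against 26.9 and 30.4 RPM in control libraries, the largest decrease of the list (-0.58, SE 0.0841). *mei-2*, the other katanin subunit, had 33.4 and 32.0 RPM in *eggd-1* libraries, against 22.5 and 22.8 RPM in control libraries (0.53, SE 0.0762), and *mei-1* rose by less (0.29).

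Of 10 other worm genes with a BTB or MATH domain, 8 were tested, 2 were higher and 2 lower, beside 21.7% and 40.8% of all features. *kel-10* had 1.78 and 1.39 RPM in *eggd-1* libraries, against 0.319 and 0.384 RPM in control libraries, a gain of over 4-fold (2.13, SE 0.338). *btbd-10* rose by 0.65, while *kel-1* (-0.66) and *kel-8* (-1.37) fell.

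22G-RNAs of many sperm fate markers differed between the genotypes. Of 22 spermatogenesis genes, 14 were tested, 11 had higher and 1 (*spe-41*) lower 22G-RNAs in *eggd-1*, with a median log2 fold change of 1.47. Some, such as *msp-40* and *msp-142*, had enough reads for the filter in the *eggd-1* libraries alone, which favours gains among the genes tested. With no filter on reads, 11 of 22 were higher and 1 lower, with a median of 1.27. Their summed level was 28.1 and 32.4 RPM in *eggd-1*, against 33.5 and 34.9 RPM in control, so sum and median differ in sign, and none of the 22 was at 0 in an untreated library. Of 10 oogenesis genes, 2 were higher and 5 lower, at 343 and 349 RPM in *eggd-1*, against 391 and 397 RPM in control. Among the members, 5 are classed as spermatogenic, and of the 4 tested *bath-13* and *btb-2* rose while *bath-45* and *bath-20* did not pass. The part of the sperm fate in these values was not tested.

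After oxidation, 22G-RNAs of the family fell to a few percent of their level, as did 22G-RNAs at large. The members summed to 236 RPM in oxidized *eggd-1*, against 203 RPM in oxidized N2. This left 4.68% of the untreated sum in *eggd-1* and 3.96% in control, beside 2.77% and 2.68% for all 22G-RNAs. These percentages depend on the scale, since piRNAs, whose 3′ ends are methylated, made up 86.4% of genome-mapped reads in oxidized *eggd-1* and 86.1% in oxidized N2, but 5.83% to 6.99% in the untreated libraries. Scaled to piRNA counts, an alternative chosen after the data had been seen, the members kept 0.366% in *eggd-1* and 0.273% in control, beside 0.217% and 0.185% for all 22G-RNAs. The control percentage sets N2 over the *pgl-1::RFP* strain, and strain and treatment cannot be told apart in it. Over the 23 members with a mean of at least 500 untreated counts, the median share left was 2.49% in *eggd-1* and 1.89% in control, beside 1.50% and 1.11% for all 3725 features of that depth. *bath-21* kept 8.52% in *eggd-1* and 5.86% in control, *bath-13* 7.56% and 6.40%, and *math-1* 6.39% and 6.77%, whereas *bath-10* kept 0.953% and 0.952%.

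**Figure D4:**
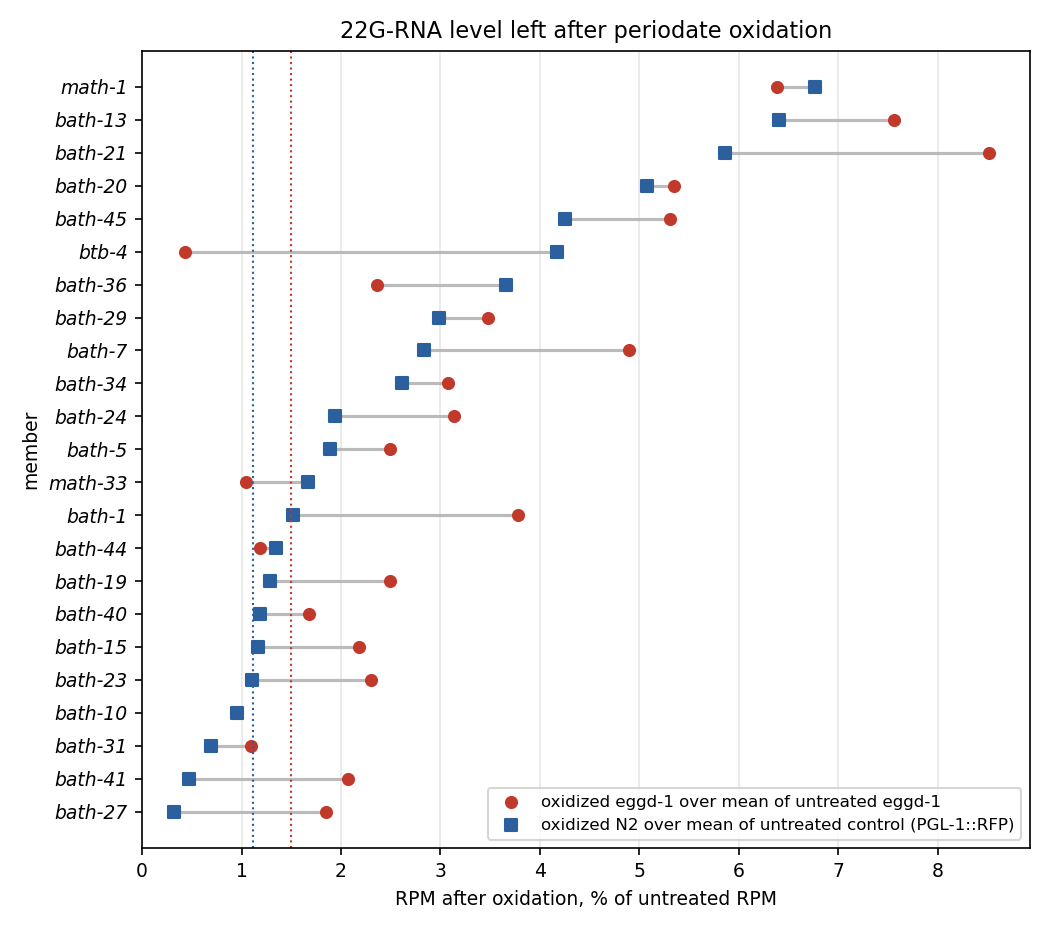
RPM after oxidation as a percentage of the mean untreated RPM for the 23 members with a mean of at least 500 untreated counts, red circles for *eggd-1* and blue squares for control (N2 over *pgl-1::RFP*), 1 oxidized library each; dotted lines mark the medians of all features of that depth, 1.50% and 1.11%. *math-1*, *bath-13* and *bath-21* kept the largest shares in control, *btb-4* kept far less in *eggd-1*, and the circle of *bath-10* lies under its square.

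Between the oxidized libraries there is no replicate and no test, and intervals cover counting error only. Of the 23 members with a mean of at least 500 untreated counts, a filter that does not use the oxidized reads, 5 (*bath-1*, *bath-19*, *bath-24*, *bath-27* and *bath-41*) were at least 2-fold higher and 1 (*btb-4*) lower in *eggd-1* on log2(RPM + 0.1), beside 20.1% and 12.6% of 3725 features. The median log2 ratio was 0.28, beside 0.07 over those features. *bath-1* had 7.06 RPM in oxidized *eggd-1*, against 1.20 RPM in oxidized N2 (ratio 5.89, 95% exact interval 4.04 to 9.06). *math-31*, below that filter, had 0.257 RPM (5 counts) in oxidized *eggd-1*, against 3.61 RPM (98 counts) in oxidized N2 (0.0711, 0.0226 to 0.172). *bath-24* had 16.2 RPM in oxidized *eggd-1*, against 6.93 RPM in oxidized N2 (2.33, 1.94 to 2.81), and *bath-19* 1.23 RPM, against 0.295 RPM. These genes, which are among those with the largest untreated changes, lay on the same side of the control as in the untreated libraries. Other members went either way. *bath-23* had a ratio of 1.89 (1.28 to 2.80) in the oxidized libraries, beside an untreated log2 fold change of -0.15 that did not pass. *bath-30*, called lower in untreated *eggd-1* (-0.28), had a ratio of 1.32 with an interval that spans 1 (0.536 to 3.06).

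*bath-41* had 1.49 RPM in oxidized *eggd-1*, against 0.295 RPM in oxidized N2 (5.05, 2.25 to 12.8), beside a log2 fold change of 0.21 in untreated RNA. *bath-27* rested on few reads, 6.67 counts in oxidized *eggd-1* against 1.75 in oxidized N2. Its log2 fold change in untreated RNA was -0.11 and did not pass. *btb-4* had 2 counts in oxidized *eggd-1*, against 38.5 in oxidized N2 (ratio 0.0724, 0.00857 to 0.284). *bath-28*, also below the filter, had 10 counts in oxidized *eggd-1* and none in oxidized N2, and the exact interval of the ratio starts at 3.12. *bath-20* had 73.2 RPM in oxidized *eggd-1*, against 77.5 RPM in oxidized N2, and *bath-45* 79.3 RPM, against 67.1 RPM.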

How the data were processed

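Small RNA libraries of 4 untreated and 2 periodate-oxidized samples were analysed, grouped by their labels. The authors trimmed reads with Trim Galore, aligned them with Bowtie to a WormBase genome without mismatches, and assigned reads of 22G-RNA length with a 5′ G or A, antisense to exons, to genes, allowing up to 1000 locations and dividing each read by its locations and features. The deposited tables hold these expected counts per gene. The authors also deposited the same values as RPM of genome-mapped reads. Dividing one by the other gave each library's number of genome-mapped reads.

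Counts, rounded to whole numbers, entered the quasi-likelihood test of edgeR 4.0.16 in R 4.3.3 over all 22G-RNA features of the untreated samples, with genotype as a term and no other, genome-mapped reads as library size, a minimum count of 10 and Benjamini-Hochberg adjustment. Calls needed an adjusted p below 0.05, and where stated a 4-fold change. The functions were tested on simulated data. SE is the log2 fold change over the square root of F. A feature with no entry was taken as 0. Coordinates, exon lengths and overlaps came from Ensembl release 115 (WBcel235), target classes from the authors' files. Intervals are exact (Clopper-Pearson, scipy 1.17.1). Alternatives were TMM, DESeq2 1.42.0, limma 3.58.1 on log2(RPM + 0.1), other library sizes and filters, a replicate block and leaving out libraries.

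Members and gene lists were chosen with earlier results of these data known. Genes named were those at least 4-fold changed, the 10 highest, the 5 largest and 5 smallest changes past the threshold with a mean of at least 50 counts, 4 with known roles (*math-33*, *bath-42*, *btb-16*, *btb-19*) and the pathway lists; other members named in the text were added after their values had been seen.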

Additional observations from a re-analysis of the deposited data

Results flagged for a closer look

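In 3 of the highest members the oxidized and the untreated comparison went opposite ways in every library on RPM of genome-mapped reads, and the difference was not tested, since the oxidized comparison has 1 library per genotype and another control strain. *bath-45* was at a ratio of 1.18 in oxidized *eggd-1* over oxidized N2, while its untreated fold was 0.948 (log2 fold change 0.0696 with TMM and 0.0783 with DESeq2, the direction of the oxidized libraries). *bath-7* was at 1.69 in the oxidized libraries, beside an untreated fold of 0.983, which also turned with TMM (0.122) and DESeq2 (0.131). The untreated differences of *bath-45* and *bath-7* were small and did not pass (adjusted p = 0.351 and 0.776 from edgeR). *bath-15* was at 1.49 in the oxidized libraries, beside an untreated fold of 0.794, but with 31 and 29 counts its interval (0.868 to 2.56) spans 1.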

How the results depend on the processing

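The median log2 fold change over members was -0.0208 with TMM, -0.0468 with DESeq2, -0.25 with miRNA totals and -0.19 with no filter, and from -0.19 to -0.11 when each library was left out. miRNA totals reduced the members called higher to 6 and DESeq2 those called lower to 9. Leaving out each library gave 7 to 10 higher and 16 to 18 lower, with 0 to 1 at least 4-fold higher (*math-9* without control replicate 1, *btb-2* without *eggd-1* replicate 2) and 1 to 2 at least 4-fold lower; the lone library was assumed to vary like the other genotype. With the 4-fold threshold inside the test 1 member, *math-31*, remained lower. Over members with whole counts the calls were 3 higher, 4 lower and 1 at least 4-fold lower. The summed ratio was 0.931 per miRNA count, 1.09 without the 2 highest members and 0.921 over members with whole counts.

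Directions turned with TMM for *bath-45* (0.0696), *bath-7* (0.12) and *math-33* (0.11), with DESeq2 for *bath-45* (0.0783), *bath-7* (0.13), *bath-23* (0.0077) and *math-33* (0.12), and without *eggd-1* replicate 2 for *math-33* (0.0014, and -0.0818 without replicate 1). The cause was not tested. With the replicate number as a block, 12 members were higher and 18 lower, *bath-20* being gained; the numbers share no stated batch, and libraries of the same number did not deviate together (r = 0.0567 over 11741 features). Over all features, DESeq2 called 2442 lower, against 4789. An alternative restricted to members of mostly unique sequence was not run. Levels under about 0.1 RPM rest on 3 counts or fewer.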
